A study of Homo sapiens with 6 samples.

Results

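The transcripts of the proteasome and of the CCT chaperonin were compared between H358 cells carrying TwistER and H358 cells carrying green fluorescent protein (GFP). H358 is an established human line of non-small cell lung cancer. TwistER is Twist, a transcription factor, fused to a hormone-binding estrogen receptor domain and switched on by 4-hydroxytamoxifen (4OHT). The groups were 3 arrays of cells expressing TwistER and 3 arrays of cells expressing GFP, and both had been cultured with 100 nM 4OHT for 12 days. The titles place the TwistER arrays after epithelial-mesenchymal transition (EMT) and the GFP arrays before it. Both lines received the drug, no TwistER culture without 4OHT was analysed, and the promoter that drives the inserts is not given in the sources used here, so effects of active TwistER and effects of how each line was made cannot be told apart.

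Members were the genes whose single annotated symbol begins with PSMA to PSMG followed by a number, or with CCT followed by a number, together with TCP1. PSMB8 and PSMB9 were left out by that rule. A gene with several probe sets was read from the brightest over all 6 arrays. This gave 52 genes of 18417, 43 of the proteasome and 9 of the chaperonin, and the mean over all arrays that picked the probe set makes no use of the difference between the lines. PSMC5, PSMD7 and PSMD13 belong to the same complexes and were not analysed here.

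The proteasome degrades proteins tagged with ubiquitin. Its core particle (20S) stacks outer rings of alpha subunits, which gate the entry, on inner rings of beta subunits, some of which cut the chain. The regulatory particle (19S) binds ubiquitin, removes it and unfolds the substrate with a ring of ATPases. CCT, also called TRiC, is a double-ring chaperonin that folds newly made actin, tubulin and other proteins inside a closed chamber. Subunits of each complex assemble in fixed proportions.

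Most of these transcripts were modestly lower in TwistER cells. All values are log2 expression, and differences are TwistER minus GFP. In the fit of all 6 arrays with limma, 5 of the 52 members fell at a Benjamini-Hochberg adjusted p under 0.05, where 4.11% of all genes fell. They were the core subunits PSMA5 and PSMA1, the assembly chaperone PSMG3, and the chaperonin subunits CCT6A and CCT8. No member rose at that threshold (0 of 52, and also 0 higher at an unadjusted p under 0.05, against 19 lower), where 4.72% of all genes rose. At the unadjusted cutoff 1916 of all 18417 genes were higher and 2053 lower, the background for every such count from the 6 arrays below. The inducible subunit PSMB9, which the rule leaves out, did rise (1.07, limma adjusted p = 0.00147). The 3 TwistER arrays lay below all 3 GFP arrays in 27 members, where 14.5% of all genes did, and above them in 0, where 13.9% of all genes did. The difference was below 0 in 44 of 52 members, or 84.6%, and in 48.9% of all genes.

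For most members the difference was small. The median was -0.25 over the 43 proteasome genes and -0.34 over the 9 chaperonin genes, against 0.01 over all genes. Members ran from -0.74 for PSMA3 to 0.17 for PSMF1. Since most members are bright, the same counts were taken over the 4604 genes in the upper quartile of brightness, a comparison chosen after seeing the data. Their median was -0.06 and 7.10% of them fell, while the 44 members in that quartile had a median of -0.30 and 4 of them, or 9.09%, fell. At an unadjusted p under 0.05, 18 of these 44 members and 935 of the 4604 genes were lower, and 0 members and 627 genes higher. In the same quartile the TwistER arrays lay below all GFP arrays in 59.1% of these members and in 27.9% of these genes. The difference was below 0 in 88.6% of these members and in 58.5% of these genes.

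GFP replicate 1 stood apart from the other arrays of its group and moved these counts. It correlated with GFP replicates 2 and 3 at r = 0.983 and 0.982 over all genes, while those 2 correlated with each other at r = 0.996. Without it, 18 of 52 members fell, or 34.6%, where 8.09% of all genes fell, and 0 rose (0 higher at an unadjusted p under 0.05, against 34 lower), where 6.97% of all genes rose. At the unadjusted cutoff 2344 of all 18417 genes were higher in this run and 2804 lower. All 5 members called in the 6 arrays were among the 18. The TwistER arrays then lay below both remaining GFP arrays in 43 members, where 23.6% of all genes did, and above both in 0, where 20.3% of all genes did. In the upper quartile of brightness, 36.4% of members and 14.9% of genes fell without GFP replicate 1. At an unadjusted p under 0.05, 32 of the 44 members and 1220 of the 4604 genes there were lower, and 0 members and 819 genes higher. There the TwistER arrays lay below both remaining GFP arrays in 93.2% of these members and 41.1% of these genes. The differences ran from -0.64 to 0.10 with a proteasome median of -0.28 and a chaperonin median of -0.36. In this run 47 of 52 differences were below 0, or 90.4%, against 50.3% of all genes. In the upper quartile of brightness the shares were 95.5% of members and 58.3% of genes. GFP was then represented by 2 arrays, so its spread rests on a single pair.

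**Figure D1:**
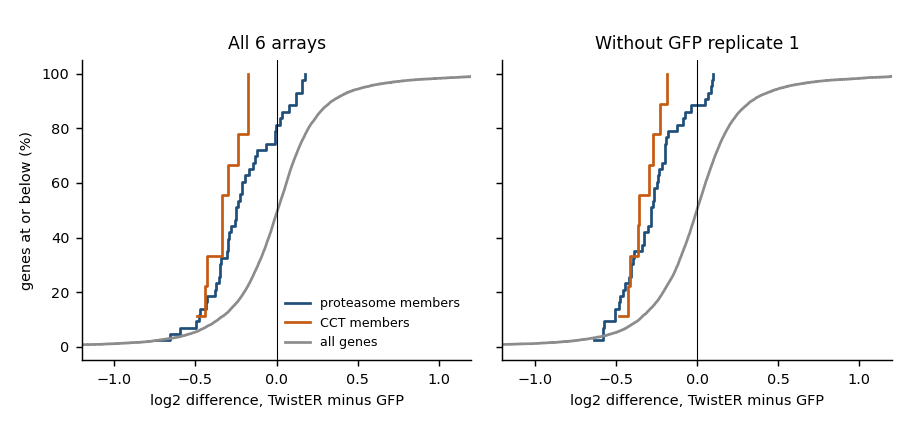
Cumulative share of genes (y axis, percent) at or below a given log2 difference, TwistER minus GFP (x axis, cropped to the central range), for the 43 proteasome members, the 9 CCT members and all 18417 genes, with all 6 arrays (left) and without GFP replicate 1 (right). Both member curves lie left of the curve of all genes, with medians of -0.25 and -0.34 on the left panel and -0.28 and -0.36 on the right.

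The starts of 4 genes that fell in either run are shown as examples of the sequence context of the core subunits and the chaperonin. The windows hold 250 bases before to 50 bases after the annotated start, from RefSeq on GRCh38.p14, written 5′ to 3′ on the gene's strand. They were taken at chr1:109426399-109426698 (minus strand) for PSMA5, chr11:14520337-14520636 (minus) for PSMA1, chr17:38752491-38752790 (plus) for PSMB3, and chr21:29073599-29073898 (minus) for CCT8. Capitals mark matches, on either strand, to the CCAAT box (CCAAT) and the antioxidant response element (TGACNNNGC).
PSMA5: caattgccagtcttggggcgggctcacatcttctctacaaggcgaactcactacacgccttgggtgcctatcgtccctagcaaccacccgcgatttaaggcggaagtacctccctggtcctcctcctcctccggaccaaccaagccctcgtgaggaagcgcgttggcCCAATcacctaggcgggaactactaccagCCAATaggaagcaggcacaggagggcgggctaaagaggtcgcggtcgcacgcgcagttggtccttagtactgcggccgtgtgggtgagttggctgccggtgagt
PSMA1: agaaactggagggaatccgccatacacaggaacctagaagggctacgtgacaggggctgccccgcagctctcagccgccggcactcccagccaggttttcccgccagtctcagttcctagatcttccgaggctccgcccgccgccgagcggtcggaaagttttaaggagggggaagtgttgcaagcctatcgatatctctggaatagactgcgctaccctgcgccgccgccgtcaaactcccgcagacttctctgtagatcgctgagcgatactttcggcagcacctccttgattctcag
PSMB3: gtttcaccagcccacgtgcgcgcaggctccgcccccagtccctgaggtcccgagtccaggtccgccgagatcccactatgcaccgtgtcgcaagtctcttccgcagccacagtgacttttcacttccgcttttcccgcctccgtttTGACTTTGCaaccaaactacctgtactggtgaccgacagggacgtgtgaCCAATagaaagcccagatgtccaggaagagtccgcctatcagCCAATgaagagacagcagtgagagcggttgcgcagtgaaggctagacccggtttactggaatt
CCT8: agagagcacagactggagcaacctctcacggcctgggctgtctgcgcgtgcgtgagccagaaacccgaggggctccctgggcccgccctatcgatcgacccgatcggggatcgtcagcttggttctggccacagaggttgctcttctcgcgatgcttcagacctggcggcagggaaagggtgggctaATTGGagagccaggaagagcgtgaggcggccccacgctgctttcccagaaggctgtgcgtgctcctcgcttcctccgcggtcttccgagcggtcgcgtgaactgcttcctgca

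PSMA5 holds CCAAT boxes that begin 83 and 54 bases before the start, and CCT8 holds a match on the opposite strand that begins 63 bases before it. PSMB3 has CCAAT boxes 55 and 13 bases before its start and an antioxidant response element 104 bases before it, the kind of site through which NFE2L1 is known to raise proteasome genes. The PSMA1 window holds neither of them. Among members that fell and are not printed, CCT2, CCT3, PSMC3, PSMD3 and PSME3 also had a CCAAT box. The windows of CCT7, PSMC4, PSMD2, PSMD11 and PSMG4 had none. Windows were available for 45 members, with 54 starts among them, of 35116 in all. There was none for CCT6A and PSMG3, which fell in both runs, or for PSMA7 and PSMB6, which fell without GFP replicate 1. Of 6 motifs searched on both strands, the CCAAT box stood in 40.7% of member windows and 34.6% of all windows. The ETS core (CCGGAAG) stood in 25.9% of member windows and 10.3% of all windows, and the antioxidant response element in 27.8% and 13.3%. The heat shock element (GAANNTTC) stood in 3.70% and 6.77%, the site of nuclear respiratory factor 1 in 14.8% and 5.78%, and the TATA box (TATAAA) in 7.41% and 11.5%. Matches do not overlap in the printed windows. Member windows had a median GC content of 62.2%, against 58.7% for all windows, and no share was adjusted for it.

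In the alpha ring of the core particle, 7 of 8 measured genes had all TwistER arrays below all GFP arrays. Of all genes 14.5% did, and of those in the upper quartile of brightness 27.9%. Of these 8 alpha genes, 2 fell in all 6 arrays and 3 without GFP replicate 1, with medians of -0.35 and -0.33. For this and the following roles, the shares of all genes that fell were 4.11% in the 6 arrays and 8.09% without GFP replicate 1. PSMA5 read 9.35, 9.17 and 9.11 in the TwistER arrays, against 10.03, 9.87 and 9.71 in the GFP arrays. The groups did not overlap, and GFP replicate 1 was the highest array. PSMA5 was 1.58-fold lower in TwistER (-0.66 ± 0.13 SE, limma adjusted p = 0.0134), and 1.49-fold lower without GFP replicate 1 (adjusted p = 0.0136). The call was lost without TwistER replicate 2, TwistER replicate 3 or GFP replicate 2 (limma adjusted p up to 0.0714).

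PSMA1 read 9.22, 9.07 and 8.88 in the TwistER arrays, against 9.94, 9.53 and 9.49 in the GFP arrays. Its groups did not overlap either, and it passed narrowly at 1.51-fold lower (-0.60 ± 0.16, limma adjusted p = 0.0498). It kept the call without GFP replicate 1 (-0.45, adjusted p = 0.0448) and lost it without any other array, with a highest adjusted p of 0.181. PSMA3 read 9.38, 9.09 and 8.93 in TwistER, against 10.35, 9.66 and 9.625 in GFP. GFP replicate 1 lay 0.70 above the mean of the other GFP arrays, and the PSMA3 difference of -0.74 ± 0.21, the lowest of all members, did not pass (limma adjusted p = 0.0662, and 0.0505 without that array). PSMA7 read 10.12, 10.02 and 10.06 in TwistER, against 10.17, 10.42 and 10.37 in GFP. GFP replicate 1 was the lowest GFP array, and PSMA7 fell in the run without it (-0.33, limma adjusted p = 0.0497) and not in all 6 arrays (adjusted p = 0.240).

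The remaining broadly expressed alpha subunits, PSMA2, PSMA4 and PSMA6, had differences of -0.35, -0.35 and -0.35 that did not pass. PSMA2 shows how far the first GFP array can carry a value. It read 9.815, 9.795 and 9.729 in TwistER, against 10.660, 9.898 and 9.837 in GFP, and its difference was -0.09 without GFP replicate 1 (95% interval -0.30 to 0.12). PSMA8, the alpha subunit of the spermatogenic proteasome, read 2.06, 2.30 and 2.50 in TwistER, against 2.33, 2.23 and 2.25 in GFP, in the lower quartile of all values (under 4.19), where background light makes up much of a reading. Its difference was 0.02 with a 95% interval of -0.28 to 0.32.

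**Figure D2:**
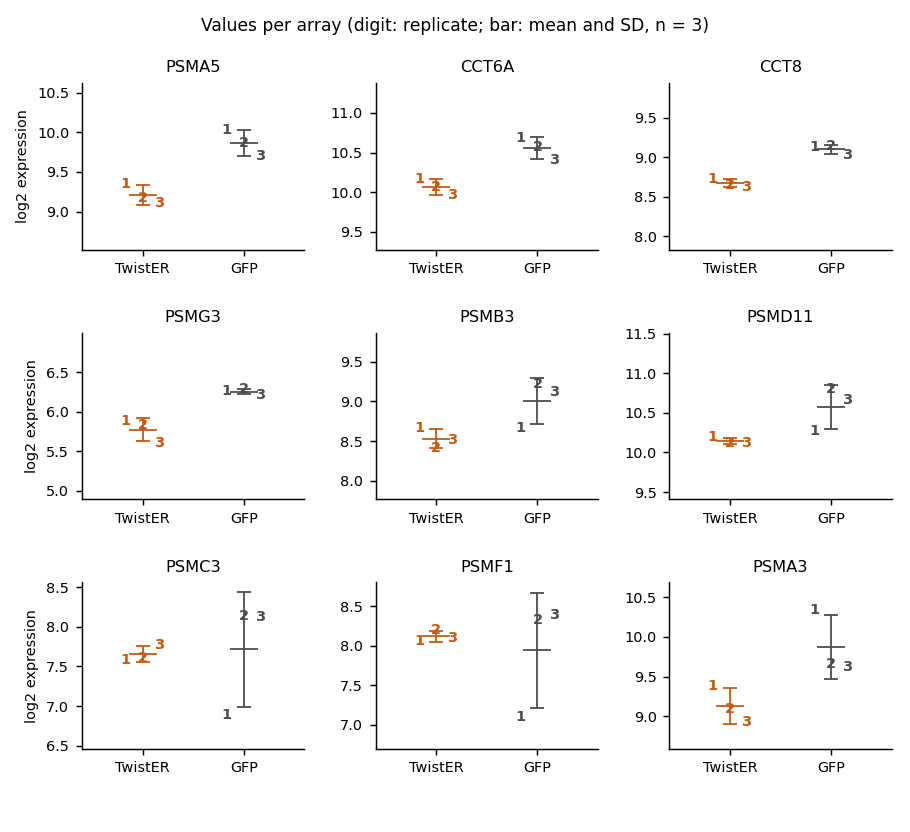
log2 expression (y axis) of 9 members in the TwistER and GFP arrays (x axis), with each digit a replicate and each bar the mean and SD of 3 arrays. Every panel spans the same log2 range. PSMA5, CCT6A, CCT8 and PSMG3 separate the lines, whereas GFP replicate 1 lies just above the TwistER arrays in PSMB3 and PSMD11, below them in PSMC3 and PSMF1, and stands above the other GFP arrays in PSMA3.

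The beta ring gave the opposite picture in GFP replicate 1. In all 6 arrays 0 of 9 beta genes fell in limma (2 were lower and 0 higher at an unadjusted p under 0.05), with a median of -0.01. Without GFP replicate 1 the median was -0.28 and 2 fell. PSMB3, a structural subunit, read 8.66, 8.42 and 8.51 in the TwistER arrays, against 8.67, 9.21 and 9.12 in the GFP arrays. GFP replicate 1 sat just above the highest TwistER array, and the difference of -0.47 ± 0.16 did not pass (limma adjusted p = 0.118). Without that array PSMB3 was 1.56-fold lower (-0.64 ± 0.11, adjusted p = 0.00773), the lowest difference of that run.

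PSMB6, PSMB7 and PSMB5 carry the caspase-like, trypsin-like and chymotrypsin-like activities of the constitutive core. PSMB6 read 7.75, 7.79 and 7.78 in TwistER, against 7.61, 8.34 and 8.23 in GFP. GFP replicate 1 was below every TwistER array, and the other GFP arrays were above them. Its difference of -0.28 ± 0.18 (limma adjusted p = 0.458) became -0.51 ± 0.09 without GFP replicate 1, 1.42-fold lower (adjusted p = 0.00997). PSMB5 read 8.99, 9.04 and 9.09 in TwistER, against 8.51, 9.35 and 9.30 in GFP. PSMB7 read 11.010, 10.990 and 11.002 in TwistER, against 10.46, 11.27 and 11.30 in GFP. The same array order held in both, and their differences of -0.01 and -0.01 became -0.28 and -0.28 without GFP replicate 1, which did not pass (limma adjusted p = 0.0803 and 0.0679).

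The structural subunit PSMB1 kept the groups apart and missed the threshold (-0.31 ± 0.10, limma adjusted p = 0.118). PSMB2 and PSMB4 had differences of -0.30 and 0.15, and of -0.42 and -0.22 without GFP replicate 1. PSMB10 and PSMB11, catalytic subunits of specialised cores, did not pass. PSMB10, an interferon-inducible subunit, read 5.915, 5.990 and 6.135 in TwistER, against 5.676, 6.001 and 5.886 in GFP, and its groups overlapped (0.16, 95% interval -0.13 to 0.45). PSMB11, of the thymic proteasome, read 3.015, 3.33 and 2.94 in TwistER, against 2.93, 3.13 and 2.86 in GFP, in the lower quartile (0.12, 95% interval -0.20 to 0.44).

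The inducible subunits PSMB9 and PSMB8 were left out by the rule. PSMB9 read 5.92, 6.05 and 5.67 in the TwistER arrays, against 4.91, 4.84 and 4.68 in the GFP arrays. It rose 2.10-fold (1.07 ± 0.13, limma adjusted p = 0.00147). PSMB8 read 6.39, 6.51 and 6.24 in TwistER, against 5.58, 6.63 and 6.56 in GFP. Its difference was 0.12 in all arrays (limma adjusted p = 0.851) and -0.22 without GFP replicate 1 (adjusted p = 0.251), and it passed in neither.

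In the base of the regulatory particle all 8 measured genes had a difference below 0. Of all genes 48.9% did, and of those in the upper quartile of brightness 58.5%. However, 0 of the 8 passed in the 6 arrays in limma (2 were lower and 0 higher at an unadjusted p under 0.05). Without GFP replicate 1, 3 fell, the ATPases PSMC3 and PSMC4 and the scaffold PSMD2. PSMC3 read 7.58, 7.60 and 7.77 in TwistER, against 6.88, 8.14 and 8.13 in GFP. The TwistER arrays lay between GFP replicate 1 and the others, which differed from it by 1.25 on the log2 scale. The PSMC3 difference was -0.06 ± 0.31 with all arrays and -0.48 ± 0.10 without that array, 1.40-fold lower (limma adjusted p = 0.0176). PSMC4 read 8.05, 8.26 and 8.19 in TwistER, against 7.64, 8.57 and 8.645 in GFP. GFP replicate 1 was again the lowest array, and the difference was -0.12 with it and -0.44 without it (limma adjusted p = 0.843 and 0.0269).

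PSMD2, a large subunit that receives ubiquitin-like domains, read 8.32, 8.24 and 8.24 in TwistER, against 8.25, 8.95 and 8.73 in GFP. GFP replicate 1 lay within the TwistER range. Its difference of -0.38 ± 0.17 (limma adjusted p = 0.258) was -0.57 ± 0.10 without that array (adjusted p = 0.0101). The ATPase PSMC6 read 9.86, 9.63 and 9.67 in TwistER, against 10.42, 10.18 and 10.05 in GFP, with no overlap. It missed the threshold in both runs (-0.50 and -0.39, limma adjusted p = 0.0540 and 0.0506), and its dimmer second probe set gave a difference of -0.64. PSMC1 and PSMC2 had differences of -0.34 and -0.21 with no overlap, and neither passed. PSMD1, a scaffold, and PSMD4, a ubiquitin receptor, overlapped between the lines, at -0.15 and -0.01 (95% interval for PSMD4 -0.27 to 0.26).

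The lid removes ubiquitin from the substrate. In all 6 arrays 0 of its 6 measured genes fell in limma (2 were lower and 0 higher at an unadjusted p under 0.05), and without GFP replicate 1, 2 did. PSMD11, a subunit known to promote assembly of the complete proteasome, read 10.19, 10.12 and 10.12 in TwistER, against 10.27, 10.80 and 10.66 in GFP. The groups did not overlap, though GFP replicate 1 lay closer to the TwistER arrays than to its own group. Its difference of -0.43 ± 0.15 (limma adjusted p = 0.122) was -0.58 ± 0.09 without that array, 1.5-fold lower (adjusted p = 0.00633, the lowest of all members in either run). PSMD3 read 7.342, 7.273 and 7.367 in TwistER, against 6.905, 7.675 and 7.795 in GFP. Its TwistER arrays lay between GFP replicate 1 and the others, and the difference was -0.13 with that array and -0.41 without it (limma adjusted p = 0.804 and 0.0265).

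PSMD14, the metalloprotease that cuts the ubiquitin chain off, read 9.34, 9.25 and 9.32 in TwistER, against 9.59, 9.54 and 9.46 in GFP. The groups were apart by a small margin, and the difference of -0.23 ± 0.10 did not pass (limma adjusted p = 0.244). PSMD12 likewise kept the groups apart without passing (-0.38 ± 0.15, limma adjusted p = 0.173). PSMD6 was nearly level at 0.03 (95% interval -0.22 to 0.28, and -0.12 to 0.31 without GFP replicate 1). PSMD8 had a difference of 0.08 in the 6 arrays and -0.26 without GFP replicate 1, and passed in neither.

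**Figure D3:**
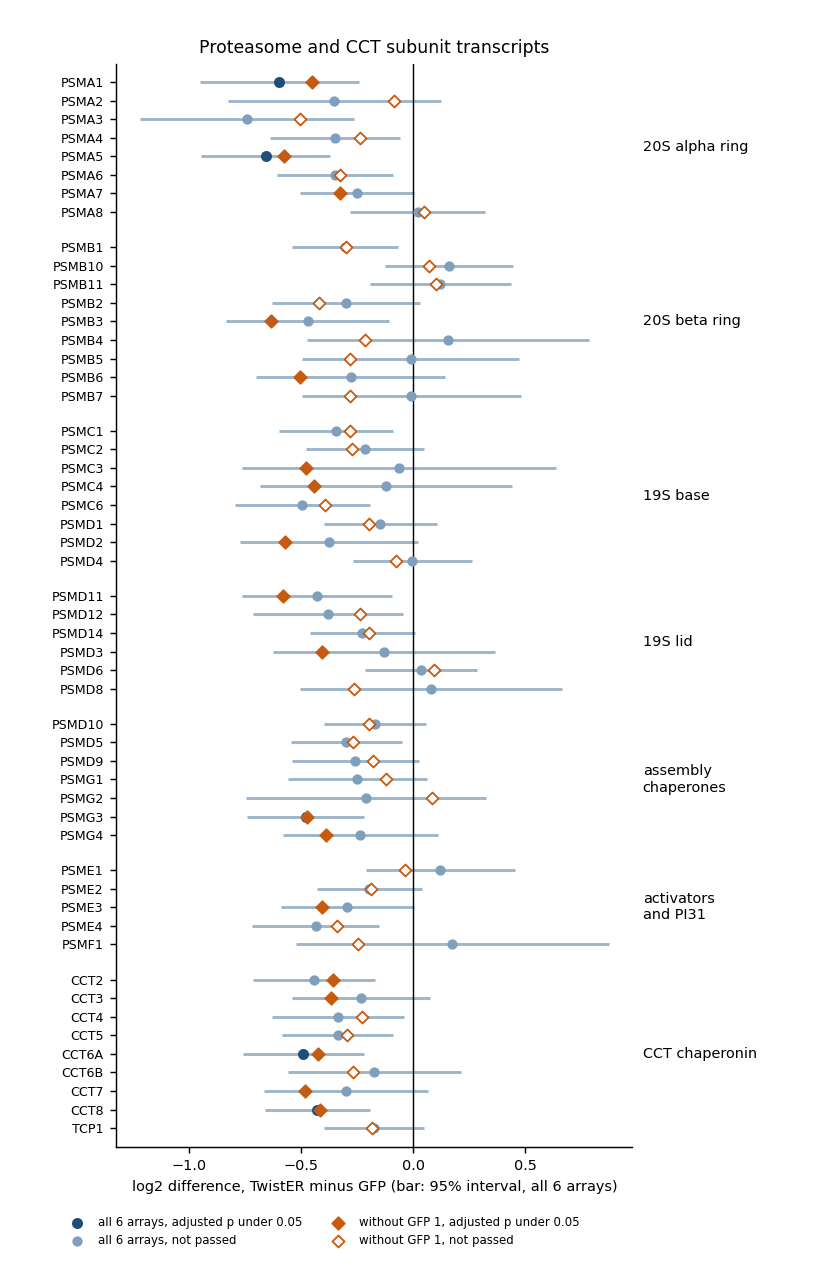
log2 difference, TwistER minus GFP (x axis), for each of the 52 members grouped by role (y axis), from all 6 arrays (circles, with 95% intervals as bars) and without GFP replicate 1 (diamonds), where filled dark circles and filled diamonds mark a limma adjusted p under 0.05. In the 6 arrays 5 members passed, and without GFP replicate 1, 18 did, all of them left of 0.

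Chaperones that build the proteasome are not part of the finished machine. Of 7 measured, 1 fell in all arrays and 2 without GFP replicate 1. PSMG3, which pairs with PSMG4 to help order the alpha ring, read 5.88, 5.83 and 5.61 in TwistER, against 6.26, 6.28 and 6.21 in GFP. The 3 GFP arrays, the first included, were close together, and all were above the TwistER arrays. PSMG3 was 1.39-fold lower (-0.48 ± 0.11, limma adjusted p = 0.0347). It kept the call without GFP replicate 1 (adjusted p = 0.0300) and lost it without any other array (highest adjusted p = 0.126).

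Its partner PSMG4 read 4.997, 5.124 and 4.962 in TwistER, against 4.964, 5.318 and 5.514 in GFP, a difference of -0.24 in the 6 arrays and of -0.39 without GFP replicate 1, when it fell (limma adjusted p = 0.437 and 0.0496). PSMG1 and PSMG2, the other pair of alpha ring chaperones, were high in GFP replicate 1. PSMG2 read 8.01, 8.20 and 7.92 in TwistER, against 8.85, 7.90 and 8.02 in GFP. Its difference was -0.21 with that array and 0.08 without it, and neither passed. The chaperones of the regulatory particle, PSMD5, PSMD9 and PSMD10, had differences of -0.30, -0.26 and -0.17 that did not pass.

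Of the activators and the inhibitor PI31, 0 of 5 passed in all arrays in limma (1 was lower and 0 higher at an unadjusted p under 0.05). PSME3, the nuclear activator subunit PA28-gamma, read 8.61, 8.56 and 8.47 in TwistER, against 8.61, 9.01 and 8.89 in GFP, and fell without GFP replicate 1 (-0.41 ± 0.10, limma adjusted p = 0.0302). PSME4, the large nuclear activator, read 7.93, 7.88 and 7.77 in TwistER, against 8.49, 8.26 and 8.145 in GFP. Its groups were apart, and it missed the threshold in both runs (-0.44 and -0.34, limma adjusted p = 0.0688 and 0.0595). PSME1 and PSME2 form the interferon-inducible activator PA28. PSME1 stood at 0.12 and PSME2 at -0.20, and neither passed in either run. PSMF1, which encodes PI31, read 8.06, 8.19 and 8.09 in TwistER, against 7.10, 8.33 and 8.39 in GFP. GFP replicate 1 lay 1.26 below the mean of the other GFP arrays, the farthest of any member, and the difference was 0.17 with it and -0.24 without it (95% intervals -0.52 to 0.87 and -0.46 to -0.03, limma adjusted p = 0.818 and 0.133).

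The chaperonin differences were below 0 in all 9 genes in both runs, against 48.9% and 50.3% of all genes. Among genes in the upper quartile of brightness the shares were 58.5% and 58.3%. In all arrays 2 of 9 fell, and without GFP replicate 1, 5 did. CCT6A read 10.16, 10.06 and 9.96 in TwistER, against 10.685, 10.567 and 10.412 in GFP. The groups were apart, and it was 1.41-fold lower (-0.49 ± 0.12, limma adjusted p = 0.0364, and 0.0348 without GFP replicate 1, but 0.0537 with median centring). It lost the call without any TwistER array or GFP replicate 2 (highest adjusted p = 0.140). CCT8 read 8.73, 8.65 and 8.63 in TwistER, against 9.12, 9.14 and 9.03 in GFP. All GFP arrays, the first included, were close together, and CCT8 was 1.35-fold lower (-0.43 ± 0.10, limma adjusted p = 0.0352), a call that held in the run without GFP replicate 1 and in none of the other 5 (highest adjusted p = 0.140) and not with cyclic loess (0.0520).

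CCT2 read 10.09, 9.95 and 9.95 in TwistER, against 10.61, 10.39 and 10.33 in GFP. It kept the groups apart, at -0.44 in all arrays (limma adjusted p = 0.0549) and -0.36 without GFP replicate 1, when it fell (adjusted p = 0.0447). CCT3 and CCT7 also fell in that run, at -0.37 and -0.48 (limma adjusted p = 0.0358 and 0.0120). CCT7 read 9.33, 9.36 and 9.34 in TwistER, against 9.28, 9.88 and 9.77 in GFP. There GFP replicate 1 was the lowest of the 6 arrays. CCT3 read 10.85, 10.81 and 10.94 in TwistER, against 10.84, 11.22 and 11.24 in GFP, and GFP replicate 1 lay within its TwistER range. CCT4 and CCT5 had groups apart, and their differences of -0.34 and -0.34 did not pass.

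TCP1, which encodes CCT1, varied little within each line. It read 12.040, 12.034 and 12.057 in TwistER, against 12.208, 12.255 and 12.200 in GFP. Although the groups did not overlap, the difference of -0.18 ± 0.10 did not pass (limma adjusted p = 0.361, 95% interval -0.40 to 0.05). CCT6B, a paralog of CCT6A found mainly in testis, read 3.13, 2.89 and 3.10 in TwistER, against 3.025, 3.030 and 3.588 in GFP, in the lower quartile (-0.17, 95% interval -0.56 to 0.21). Related subunits can share probes on such arrays, and the sources do not say which probes these are.

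GFP replicate 1 did not depart from its group in 1 direction. Relative to the mean of the other GFP arrays, it was lower by a median of -0.50 over the 9 beta ring genes and higher by a median of 0.29 over the 8 alpha ring genes. It was the highest GFP array in 7 of 8 alpha genes and in 0 of 9 beta genes. Among all 18417 genes it was the highest GFP array in 7357 and the lowest in 7702. Among the 4604 genes in the upper quartile of brightness it was the highest in 2403 and the lowest in 1871. Over all members the absolute departure had a median of 0.31, against 0.23 over all genes and 0.31 over genes in the upper quartile of brightness, and 14 of 52 members departed by over 0.5, or 26.9%. The same share was 17.7% of all genes and 26.4% of genes in the upper quartile of brightness, where it was 31.8% of members. PSMG2 (0.89), PSMA2 (0.79) and PSMA3 (0.70) lay farthest above, and PSMF1 (-1.26), PSMC3 (-1.25), PSMB4 (-1.12) and PSMD8 (-1.02) farthest below. The 6-array differences thus mix members that moved farther below 0 with this array and members that moved toward 0 with it, and its part in each was measured only by leaving it out.

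**Figure D4:**
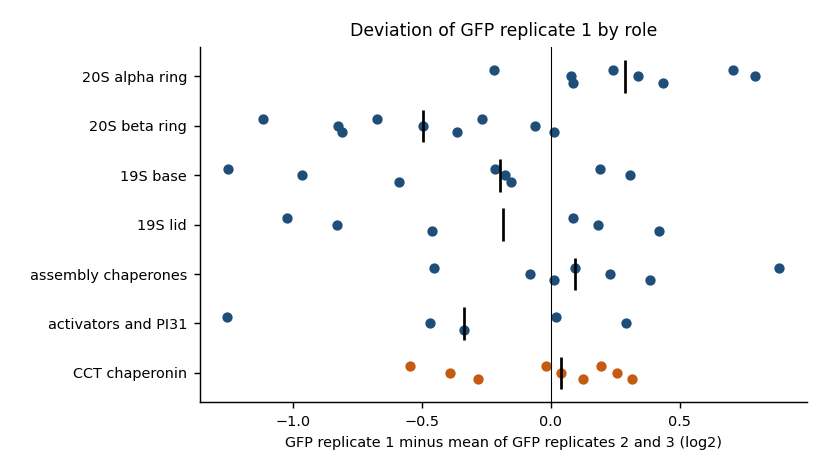
GFP replicate 1 minus the mean of GFP replicates 2 and 3 (x axis, log2) for each of the 52 members, grouped by role (y axis), with black bars at the medians. Alpha ring genes lie mostly right of 0 (median 0.29) and beta ring genes left of it (median -0.50).

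By array, the median deviation of the 52 members from their own mean over all arrays was -0.11, -0.14 and -0.14 in the TwistER arrays, against 0.04, 0.19 and 0.12 in the GFP arrays. The TwistER arrays lay close together, and GFP replicate 1 was nearest to them. Over all genes the same medians stayed between -0.02 and 0.02. For the chaperonin alone the values were -0.13, -0.19 and -0.22 in TwistER, against 0.24, 0.20 and 0.11 in GFP, so that in this complex GFP replicate 1 was not the nearest to TwistER. These cultures were measured in bulk, in which fewer cells of a type and less RNA per cell cannot be told apart.

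**Figure D5:**
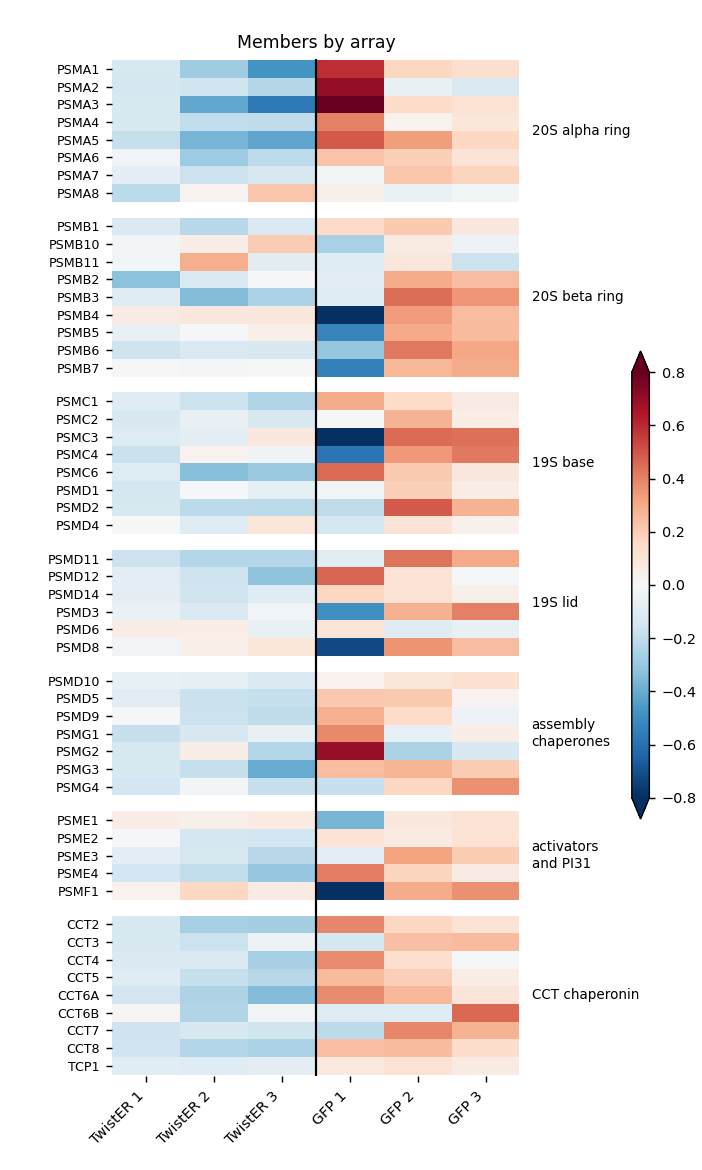
log2 value of each of the 52 members minus its own mean over 6 arrays (colour, blue low and red high, saturated beyond 0.8) in the 3 TwistER and 3 GFP arrays (x axis), with members grouped by role (y axis). GFP replicates 2 and 3 are mostly red and the TwistER arrays mostly blue, while GFP replicate 1 is red in most alpha ring and chaperonin genes and blue in most beta ring genes.

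Other genes of the same pathways were listed from general knowledge. Of 16 measured proteasome partners outside the symbol rule the count was 1 higher and 1 lower past the threshold (median -0.26), and 1 higher and 4 lower without GFP replicate 1. Their differences were below 0 in 15 of 16 genes in both runs, or 93.8%, against 48.9% and 50.3% of all genes. Among genes in the upper quartile of brightness 58.5% and 58.3% were. PITHD1 fell (-0.50 ± 0.10, limma adjusted p = 0.0176) and UBQLN2, a shuttle that carries ubiquitylated proteins to the proteasome, rose 1.62-fold (0.69 ± 0.15, adjusted p = 0.0243). UCHL5, a deubiquitinase of the base, and its receptor ADRM1 fell without GFP replicate 1 (-0.43 and -0.57, limma adjusted p = 0.0296 and 0.00942). POMP, the maturation factor of the core, read 9.65, 9.32 and 9.45 in TwistER, against 10.57, 9.71 and 9.62 in GFP, and did not pass (-0.49, limma adjusted p = 0.289). NFE2L1, the transcription factor that raises proteasome genes when proteasome activity is short, read 8.02, 8.01 and 8.05 in TwistER, against 7.58, 7.98 and 8.10 in GFP (0.14, limma adjusted p = 0.660). Of the 4 measured regulators of proteasome genes 0 passed in either run in limma (0 higher and 1 lower at an unadjusted p under 0.05).

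Around the chaperonin, 1 of 14 measured cofactors passed. PDCL3, a phosducin-like protein that binds CCT, read 7.26, 7.25 and 7.59 in TwistER, against 8.26, 7.99 and 8.03 in GFP. It fell 1.66-fold (-0.73 ± 0.14, limma adjusted p = 0.0121). Genes of the chaperonin's substrates and of tubulin folding included rises. Of 17 measured, 3 rose and 0 fell (4 were higher and 2 lower at an unadjusted p under 0.05), and 3 rose and 3 fell without GFP replicate 1. The tubulin genes TUBB2B (2.23-fold), TUBB2A (1.64-fold) and TUBA1A (1.44-fold) rose, with limma adjusted p of 0.000653, 0.00550 and 0.0258. TUBA4A was 1.77-fold lower in the 6 arrays without passing (limma adjusted p = 0.0824) and fell 2.21-fold without GFP replicate 1 (adjusted p = 0.000514). TUBB4B and TUBG1 also fell in that run (-0.38 and -0.44, limma adjusted p = 0.0326 and 0.0484). The list had a median of 0.10 in all arrays and -0.02 without GFP replicate 1.

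Of 22 measured heat shock chaperones and their partners 3 fell and 0 rose in limma (0 were higher at an unadjusted p under 0.05), and 6 fell without GFP replicate 1, with medians of -0.19 and -0.26. Their differences were below 0 in 21 of 22 genes, or 95.5%, and in 20, or 90.9%, without GFP replicate 1. The same shares were 48.9% and 50.3% of all genes, and 58.5% and 58.3% of genes in the upper quartile of brightness. They were 84.6% and 90.4% of the 52 members. The direction was thus not particular to the members. Of all genes 4.11% fell in the 6 arrays and 8.09% without GFP replicate 1. BAG1, a nucleotide exchange factor of HSP70, fell 1.75-fold (-0.81 ± 0.15, limma adjusted p = 0.0128), the HSP110 family gene HSPA4L fell 1.65-fold (-0.73 ± 0.11, adjusted p = 0.00362), and the HSP90 partner FKBP4 fell 1.41-fold (-0.49 ± 0.10, adjusted p = 0.0167). Of 5 other chaperonin genes 0 passed in limma (3 were lower and 0 higher at an unadjusted p under 0.05), and HSPE1, the mitochondrial co-chaperonin, and MKKS fell without GFP replicate 1. Of 5 genes of the VCP segregase UFD1 fell (-0.40 ± 0.10, limma adjusted p = 0.0470), also without GFP replicate 1. Of 3 measured genes of ubiquitin and its activation 0 passed (0 at an unadjusted p under 0.05).

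Some members share a promoter region with a gene on the other strand. Among 10 members with a measured neighbour whose start lies within 1000 bases upstream, in the opposite direction, 2 neighbours fell. They were ATG4A, an autophagy protease that starts 236 bases from PSMD10 (-0.59, limma adjusted p = 0.0167), and TSACC, 234 bases from CCT3 (-0.74, adjusted p = 0.0464). Neither PSMD10 nor CCT3 passed in the 6 arrays. Without GFP replicate 1, CCT3 and TSACC both fell (-0.37 and -0.54, limma adjusted p = 0.0358 and 0.0345). In that run ATG4A fell (-0.51, limma adjusted p = 0.0142) and PSMD10 did not (-0.20, adjusted p = 0.186). Of all genes 4.11% fell in the 6 arrays and 8.09% without GFP replicate 1. The other 8 neighbours did not pass in either run, and MRPL18, 210 bases from TCP1, stood at -0.27 (limma adjusted p = 0.216).

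Markers of proliferation and of cell types were read beside the members. Of 11 proliferation markers 0 passed in limma (1 was lower and 0 higher at an unadjusted p under 0.05), though 9 of 11 differences were below 0, and MCM4 and MCM7 fell without GFP replicate 1. Their median levels were 8.71, 8.63 and 8.85 in TwistER, against 8.68, 9.18 and 9.08 in GFP. Of 6 epithelial markers 4 fell, 6 without GFP replicate 1, and none was in the lower quartile on any array. Their median level was 8.09 to 8.23 in TwistER, against 8.96 to 9.52 in GFP, and the median of their differences was -2.10. CDH1 was 31.9-fold, EPCAM 9.73-fold, KRT19 9.3-fold and KRT8 1.63-fold lower in the 6 arrays, where KRT18 and KRT7 did not pass. Of 8 fibroblast markers 3 rose (COL1A1, COL3A1 and PDGFRA) and LUM fell, with median levels of 4.97 to 5.03 in TwistER, against 4.42 to 4.62 in GFP. Of 4 endothelial markers PECAM1 and KDR rose, with median levels of 4.34 to 4.59 in TwistER, against 4.08 to 4.35 in GFP. Of 4 leukocyte markers 0 passed in limma (0 at an unadjusted p under 0.05), with medians of 3.77 to 3.98 in TwistER, against 3.44 to 3.70 in GFP, and PTPRC rose without GFP replicate 1. On any array 1 to 3 of the fibroblast, 1 to 2 of the endothelial and 2 to 3 of the leukocyte markers were in the lower quartile. The part of proliferation and of these markers in the lower proteasome and chaperonin values was not tested.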

How the data were processed

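Total RNA of 6 samples was labelled with biotin and read on Affymetrix arrays, per the labels' protocols. The authors deposited log2 expression values per probe set made with RMA, per the submitters' processing notes, whose version is not given in the sources used here. Such values have like distributions on every array, so a shift of the whole transcriptome would not show. All 6 columns were assigned to samples, and 0 were left over. Titles call the replicates biological without saying whether cultures were separate. The p-values therefore cover only the variation among these 6 samples, which may be technical, and so few arrays limit the precision.

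Of 33297 probe sets 19460 had 1 symbol in the platform annotation, 1754 had several and 12083 were unnamed there; those with 1 gave 18417 genes. All 52 members matched RefSeq (GRCh38.p14), 2 had several probe sets, and 0 member probe sets repeated values of another. limma 3.58.1 in R 4.3.3 (lmFit then eBayes, a 2-sided test with no covariate and 4.44 prior degrees of freedom) was fitted to all genes with Benjamini-Hochberg adjustment and a threshold of 0.05. Rose and fell are used only past it. Members and lists (21, with 194 entries) were chosen with earlier results of these data known. All members may be named by rule, and up to 4 genes past the threshold per other list. Exceptions chosen after their values were seen are UCHL5, ADRM1, POMP, NFE2L1, TUBA4A, TUBB4B, TUBG1, HSPE1, MKKS, MCM4, MCM7, PTPRC, MRPL18, ATG4A and TSACC. Alternatives were other normalizations, brightness filters, probe set means, variance models, a replicate block, thresholds and leaving out each array. Scripts were tested on simulated data.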

Additional observations from a re-analysis of the deposited data

How the results depend on the processing

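Under all alternatives, leaving out an array included, 0 members rose (PSMB9, which rose, is left out by the rule), and the medians of both complexes stayed below 0 in every run. The count of members that fell was 5 with all arrays, 3 with median centring, 3 with cyclic loess, 8 among genes above the median brightness, 10 with a trended robust variance, 21 with array weights, 0 at an adjusted p under 0.01 and 9 under 0.1. It ranged from 0 to 18 when 1 array was left out, with 18 without GFP replicate 1, 1 without TwistER replicate 1, 0 without TwistER replicate 2 or 3, 0 without GFP replicate 2 and 2 without GFP replicate 3. Array weights gave GFP replicate 1 a weight of 0.194, against 0.871 to 1.93 for the others, and 14 of the 18 members that fell without that array fell there too. Over all 18417 genes 1627 were called in either direction, 1572 with median centring and 1688 with cyclic loess. The count was 1700 with a trended robust variance and 3268 with array weights. Above the median brightness, a filter that left some members out, 1581 of 9208 genes were called. At an adjusted p under 0.01 and under 0.1 the counts were 807 and 2389, and with 1 array left out from 831 to 2773. The proteasome median was -0.18 with cyclic loess, and the chaperonin median was -0.25 with a second quantile normalization and -0.25 with cyclic loess, shifts over the spread between arrays. The cause was not tested. Scalings moved the median of all genes by under 0.1. Another normalization ended 3 of the 5 calls. PSMA1 was lost under all 3 (adjusted p = 0.0507 to 0.0704), CCT6A with median centring (0.0537) and CCT8 with cyclic loess (0.0520), while PSMA5 and PSMG3 passed under each of them.

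Members near 0 changed sign, and none passed in a run where its sign had changed. PSMA8 had -0.0008 with a second quantile normalization and -0.0067 with median centring. PSMB5, PSMB7 and PSMD4 had 0.0179, 0.0549 and 0.0008 with a second quantile normalization and 0.0598, 0.0757 and 0.0239 with cyclic loess. With array weights PSMB4, PSMD8, PSME1, PSMF1 and PSMG2 had -0.16, -0.22, -0.0128, -0.17 and 0.0655. Leaving out 1 array gave ranges of -0.27 to 0.0121 for CCT6B, -0.0876 to 0.13 for PSMA8, -0.22 to 0.36 for PSMB4, -0.28 to 0.14 for PSMB5, -0.28 to 0.14 for PSMB7, -0.48 to 0.15 for PSMC3, -0.44 to 0.0579 for PSMC4, -0.41 to 0.0373 for PSMD3, -0.0774 to 0.0478 for PSMD4, -0.0071 to 0.0941 for PSMD6, -0.26 to 0.28 for PSMD8, -0.0378 to 0.20 for PSME1, -0.24 to 0.40 for PSMF1 and -0.39 to 0.0848 for PSMG2.

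With the replicate number as a block, 5 members fell and 1592 genes were called. CCT8 and PSMG3 lost their calls there (limma adjusted p = 0.0641 and 0.0512), and PSMA3 and PSMC6 gained one (0.0156 and 0.0443). Deviations of same-numbered arrays from their group means correlated at 0.139, 0.015 and 0.157, and 5 of 6 arrays correlated best with their own number, a hint from the data and not from the design, so the arrays were treated as sharing a number only.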
